A study of Mus musculus with 30 samples.

Results

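The 10 genes examined here are Mgmt and 9 genes whose transcription is known to be raised by the tumour suppressor p53, namely Mdm2, Cdkn1a, Ccng1, Bax, Aen, Trp53inp1, Phlda3, Zmat3 and Sesn2. They were taken by gene symbol from the 46078 genes of the counts table, and all 10 were found and passed the filter on low counts. RNA came from the scraped epithelial layer of the colon of wild-type C57BL/6J mice that were 5 to 10 weeks old at the start, with 5 females and 5 males in each of 3 treatments and 1 library per mouse. Vehicle-treated mice received saline i.p., and those sequenced were killed at 9 weeks. AOM/DSS mice received 1 injection of azoxymethane (AOM, a colon carcinogen) at 10 mg/kg and then dextran sulfate sodium (DSS, an irritant that causes colitis) at 2.5% in the drinking water in 3 cycles, in weeks 1, 4 and 7. They were killed at 9 weeks, soon after the last cycle, or at 15 weeks. The single AOM injection opened the treatment, so the RNA was taken 9 or 15 weeks after it, and the days after the injection were not sampled. No group received AOM or DSS alone, so the effects of the 2 cannot be told apart. The vehicle libraries all come from 9 weeks, so at 15 weeks the effect of treatment and that of elapsed time cannot be told apart. The study describes the sequenced tissue as colon epithelium without tumour.

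AOM is converted in the body to a methylating agent that leaves O6-methylguanine in DNA, a base that pairs with thymine and gives G-to-A changes. Mgmt encodes the methyltransferase that takes the methyl group off this base and is used up in doing so. DNA damage stabilises p53, which then raises genes that stop the cell cycle, start apoptosis or repair the damage, and Mdm2, itself a p53 target, returns p53 to a low level. The question put to the data was whether the RNA of this repair enzyme and of these targets differed from vehicle when the colitis was recent and again weeks later.

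The libraries held between 9265804 and 30806392 counts. All 10 epithelial markers, Epcam among them, had counts in every library, and the summed level of the 10 was at least 12029 CPM (counts scaled to a common library size, a level not corrected for transcript length). Muscle and connective tissue differed between the scrapes. The 8 smooth muscle markers summed to 5595 CPM in male vehicle replicate 1 but to between 13.6 and 231 CPM in the other libraries. Female replicate 5 at 9 weeks held 0.645 CPM of the 5 neutrophil markers, while the other 4 of its group held 11.1 to 120 CPM. The 3 libraries with the most smooth muscle RNA, male vehicle replicates 1 and 5 and female replicate 3 at 9 weeks, held 5595, 135 and 231 CPM of it, and where leaving them out changed a call both values are given.

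**Figure D1:**
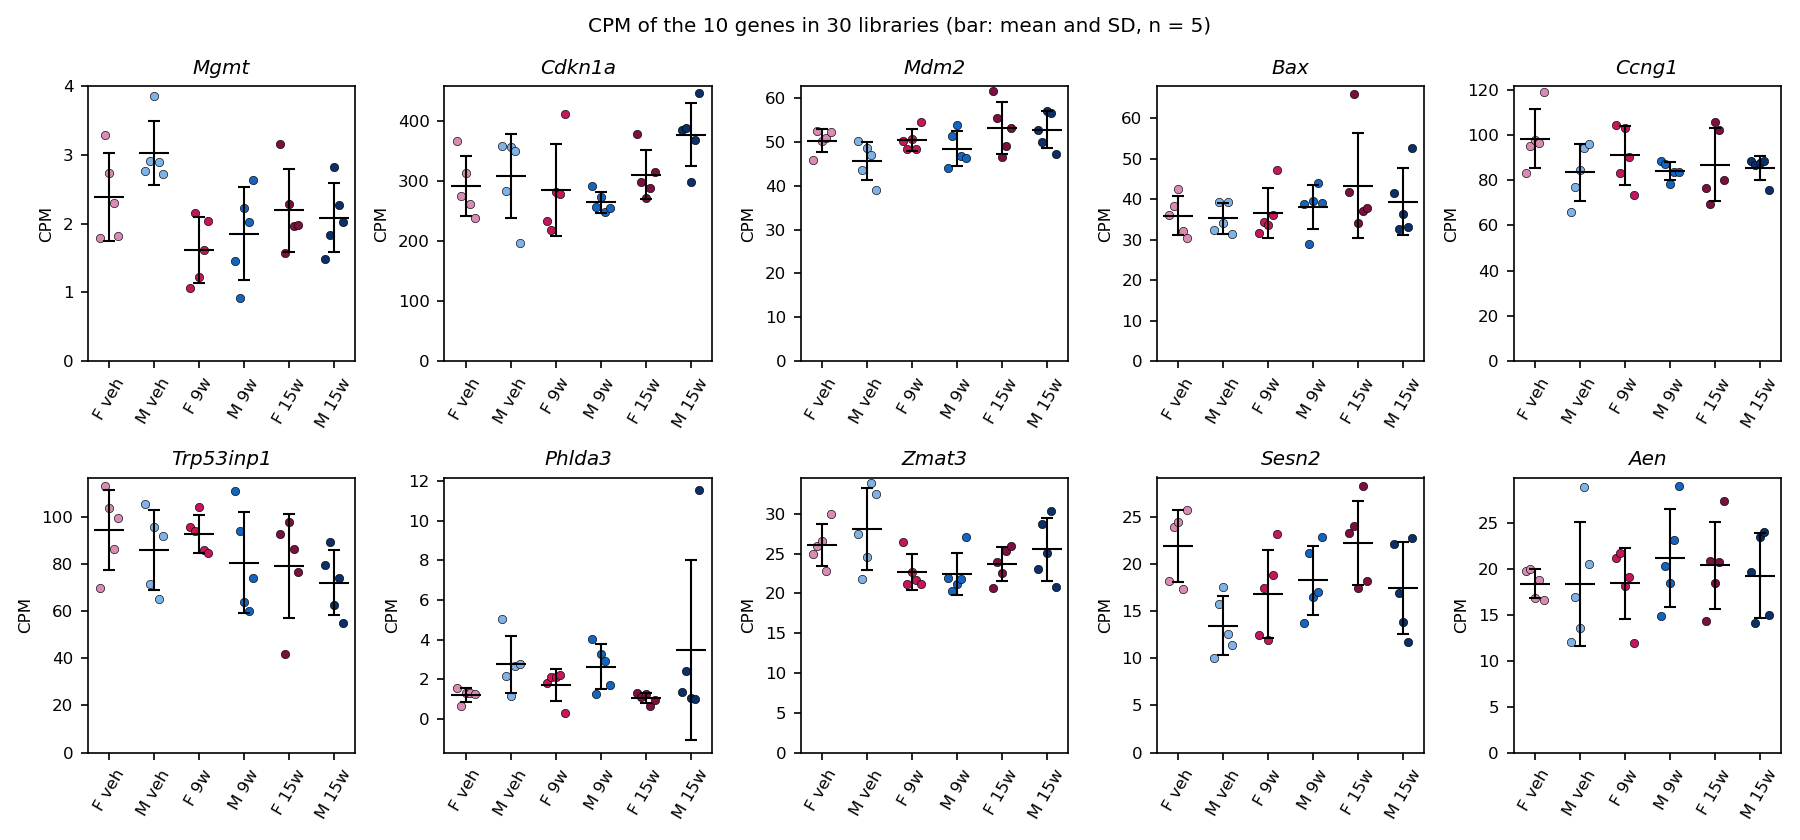
CPM (vertical axis, from 0 except for Phlda3, where the SD bar reaches below 0) of each of the 10 genes in the 30 libraries, by group (F, female; M, male; veh, vehicle; 9w and 15w, weeks of AOM/DSS). Points are libraries and bars are the mean and SD of 5 mice, and the points of most genes overlap between groups, while the 5 male Mgmt values at 9 weeks lie at or under 2.64 CPM and the 5 of vehicle-treated males at or over 2.73 CPM.

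The promoters were searched for the decamer that p53 binds in pairs. The RefSeq promoter table for GRCm38.p6, which gives 250 bases before to 50 after each start, held 8 of the 10 genes, and Trp53inp1 and Zmat3 were the other members. A single copy of the p53 response-element decamer, a consensus that reads alike on both strands and was searched without mismatches, stood in the promoter of 5 of the 8, or 62.5%, and in none of Mgmt, Phlda3 and Sesn2. Of the 27025 genes in the table, 9.55% held one in any listed promoter. The 6 matches are shown because they are the only sequence feature that the promoters were searched for, in windows of 30 bases on the gene's own strand with the decamer in capitals.
Cdkn1a, chr17:29090896-29090925, plus strand: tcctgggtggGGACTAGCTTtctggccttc
Cdkn1a, chr17:29090918-29090947, plus strand: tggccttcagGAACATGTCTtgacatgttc
Mdm2, chr10:117710925-117710954, minus strand: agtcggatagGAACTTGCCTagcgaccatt
Ccng1, chr11:40755452-40755481, minus strand: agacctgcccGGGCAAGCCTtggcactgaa
Bax, chr7:45467080-45467109, minus strand: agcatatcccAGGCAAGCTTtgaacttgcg
Aen, chr7:78895927-78895956, plus strand: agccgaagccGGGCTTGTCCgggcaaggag

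Counted from the start site, the decamers began at −186 in Mdm2, −185 in Ccng1 and −201 in Bax. In Cdkn1a they began at −73 and −51 from its first listed start, and the promoter at its other listed start held 0. The decamer of Aen lay at −121 from one of its listed starts and at 10 from the other.  A match is a description of the letters, and binding was not measured here. The promoter of Mgmt at its first start was 66.3% G or C, with a CpG content of 0.652 of that expected from its base composition, against medians of 52.7% and 0.384 over the 32851 promoters of the table. The promoter at its other listed start was 52% G or C with a CpG content of 0.149, both under those medians.

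In vehicle-treated mice the 10 genes were ordered by TPM (a level per transcript length, summing to a fixed total in each library, here rescaled over the nuclear genes). Cdkn1a, which encodes the cyclin-dependent kinase inhibitor p21, stood highest at 229 ± 62.9 TPM (SD, n = 10), and its lowest library lay above the highest of Bax at 56.6 ± 9.75 TPM. Ccng1 followed at 38.0 ± 6.80 TPM. Trp53inp1 at 25.6 ± 6.37 TPM and Mdm2 at 24.0 ± 3.70 TPM could not be ordered, since Trp53inp1 was the higher in only 6 of the 10 libraries. Aen at 11.3 ± 3.23 TPM lay under Mdm2 in all 10 libraries without overlap. Sesn2 at 7.24 ± 2.18 TPM, Zmat3 at 5.07 ± 1.32 TPM and Mgmt at 4.47 ± 1.27 TPM overlapped their neighbours, with 7 of 10 libraries in that order at each step. Phlda3 was lowest at 2.11 ± 1.69 TPM. Mgmt and Phlda3 rested on few reads, 17 to 103 counts per library for Mgmt and 6 to 337 for Phlda3, against 2239 to 13012 for Cdkn1a. The deposited TPM was not used unscaled for this order, because a single mitochondrial gene, mt-Nd4l, took 39.2% to 58.1% of it. Fits on it as deposited are given below only as alternatives and carry this limit.

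At 9 weeks of AOM/DSS, Mgmt was the only one of the 10 genes that passed the test with the sexes averaged, and its level was lower. For a call, 3 conditions had to hold, namely an adjusted p under 0.05, a log2 fold change of more than 0.4 up or down, and a mean FPKM (a level per transcript length and library size) of 1 or more in either group. Of all 16261 genes tested, 8.51% were called in this comparison, 5.65% higher and 2.87% lower, so that 1 of 10 is close to the background share. Unadjusted p-values under 0.05 were found for 2 of the 10, Mgmt and Zmat3, against 29% of all genes. The median log2 fold change was −0.01 over the 10 genes and −0.02 over all genes tested.

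Mgmt (ENSMUSG00000054612, chromosome 7, 136894611 to 137128187, plus strand, GRCm38) stood at 1.80, 3.28, 2.74, 2.30 and 1.81 CPM in the 5 vehicle-treated females and at 2.77, 2.91, 3.86, 2.90 and 2.73 CPM in the 5 vehicle-treated males. At 9 weeks it stood at 1.06, 2.15, 1.23, 1.62 and 2.04 CPM in females and at 1.45, 0.917, 2.22, 2.03 and 2.64 CPM in males. The females overlapped, with 2 of the 5 treated mice above the lowest vehicle-treated one, and the males did not overlap. Averaged over the sexes, Mgmt fell by 0.64 ± 0.19 (SE) on the log2 scale, with a 95% interval from −1.02 to −0.25 and an adjusted p of 0.0200 by edgeR's quasi-likelihood test. The level fell by 35.7%, with an interval from −50.8% to −15.9%.

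In each sex alone the change of Mgmt did not pass. It was −0.71 ± 0.27 on the log2 scale in males (adjusted p = 0.0878) and −0.57 ± 0.27 in females (adjusted p = 0.275). The difference between the sexes in this change was −0.14 ± 0.38, with an interval from −0.91 to 0.63, which does not show that the sexes responded alike. Separation of the male groups downward was seen in 4.77% of all genes tested.

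The call on Mgmt turned on the scale and on a few libraries. DESeq2 gave −0.64 with an adjusted p of 0.00594, and leaving out each of the 20 libraries in turn kept the call, with adjusted p from 0.0103 to 0.0464. Without the 3 libraries with the most smooth muscle RNA the fold change was again −0.64, but the adjusted p was 0.0505. On TPM the call was lost, with −0.21 and an adjusted p of 0.478 as deposited and −0.45 and 0.119 rescaled over nuclear genes, whereas with TMM scaling of the same TPM it was kept at −0.43 and 0.0153. The median of all genes moved by 0.23 on the log2 scale in the deposited TPM.

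**Figure D2:**
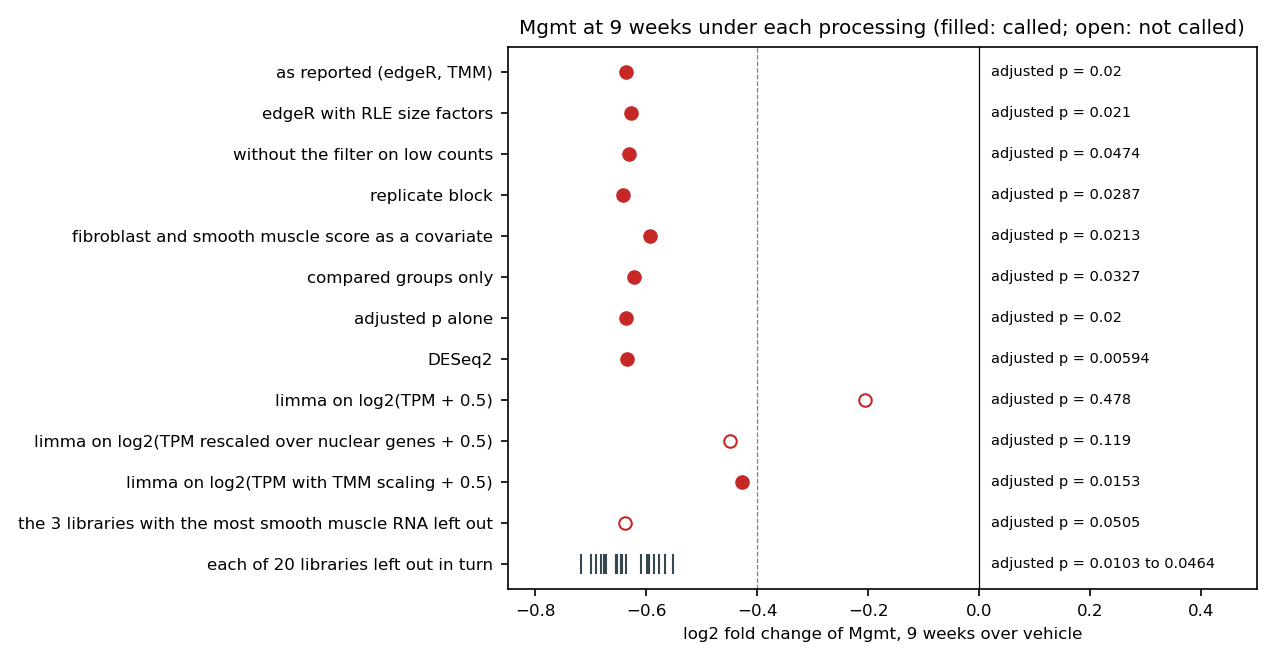
Log2 fold change of Mgmt at 9 weeks over vehicle, sexes averaged (horizontal axis), under each processing named at the left, with the adjusted p at the right. Filled circles are called and open circles are not, the dashed line is the minimum of −0.4, and the ticks in the bottom row are the 20 fits that leave out 1 library each. All 12 named fits lie below 0 and 3 of them are not called.

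Other cell types also differed at 9 weeks. Of the 8 leukocyte markers 6 rose, beside 5.65% of all genes called higher. The summed level of the 8 was 30.1 to 103 CPM in the 10 vehicle-treated mice and 66.6 to 233 CPM in the 10 treated ones. Of the 5 neutrophil markers 4 rose, from at most 3.55 CPM in vehicle-treated mice to a median of 23.4 CPM, and in at least 1 vehicle library all 5 were at 0. In a scrape of mixed cells, fewer cells of a type and less RNA per cell cannot be told apart. With each group's mean taken off, the level of Mgmt and the mean level of the leukocyte markers had r = −0.53 (permutation p = 0.00983, adjusted p = 0.0786) and rho = −0.50 (permutation p = 0.0165, adjusted p = 0.0946) over the 30 libraries, and r was −0.44 without the 2 libraries farthest in leukocyte markers. The adjustment covers 40 relations, of the 10 genes with 4 marker lists. With the fibroblast markers Mgmt had r = −0.40 and rho = −0.46 (adjusted permutation p = 0.119 and 0.0783). With the smooth muscle markers it had r = −0.33 and rho = −0.43 (adjusted permutation p = 0.208 and 0.108). With the epithelial markers it had r = 0.17 and rho = 0.21 (adjusted permutation p = 0.576 and 0.551). The part of the leukocytes in the lower Mgmt level at 9 weeks was not tested. With the mean level of the fibroblast and smooth muscle markers as a covariate, Mgmt fell by 0.59 (adjusted p = 0.0213). The leukocyte markers were not in that covariate.

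At 15 weeks Mgmt lay between its levels in the other groups. It stood at 3.16, 1.58, 2.29, 1.96 and 1.97 CPM in females and at 1.48, 1.84, 2.82, 2.27 and 2.02 CPM in males, and both sexes overlapped with vehicle. The fold change over vehicle was −0.33 ± 0.19 on the log2 scale (adjusted p = 0.212), and that of 15 over 9 weeks was 0.30 ± 0.19 (adjusted p = 0.327). In neither was Mgmt called, and the intervals, −0.72 to 0.05 and −0.08 to 0.69, leave room for a change of the size seen at 9 weeks. On TPM the sign of the change from 9 to 15 weeks was the opposite, at −0.25 as deposited and −0.03 rescaled over nuclear genes.

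Of the 9 p53 targets, none was called at 9 weeks, at 15 weeks, or between the 2 times with the sexes averaged. At 15 weeks over vehicle 7.79% of all genes were called, 3.54% higher and 4.25% lower, and at 15 over 9 weeks 2.42%. Unadjusted p-values under 0.05 were found for 1 of the 10 genes in each of these, Mdm2 and then Cdkn1a, against 34.2% and 23.7% of all genes. DESeq2 called none of the 10 in either. The intervals bound the changes that these libraries could have missed. At 9 weeks the 95% interval lay within 0.4 of 0 on the log2 scale for 6 of the 10 genes, at 15 weeks for 3 of 10, and at 15 over 9 weeks for 5 of 10. Among the targets, the interval reached beyond 0.6 in all 3 comparisons for Phlda3.

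**Figure D3:**
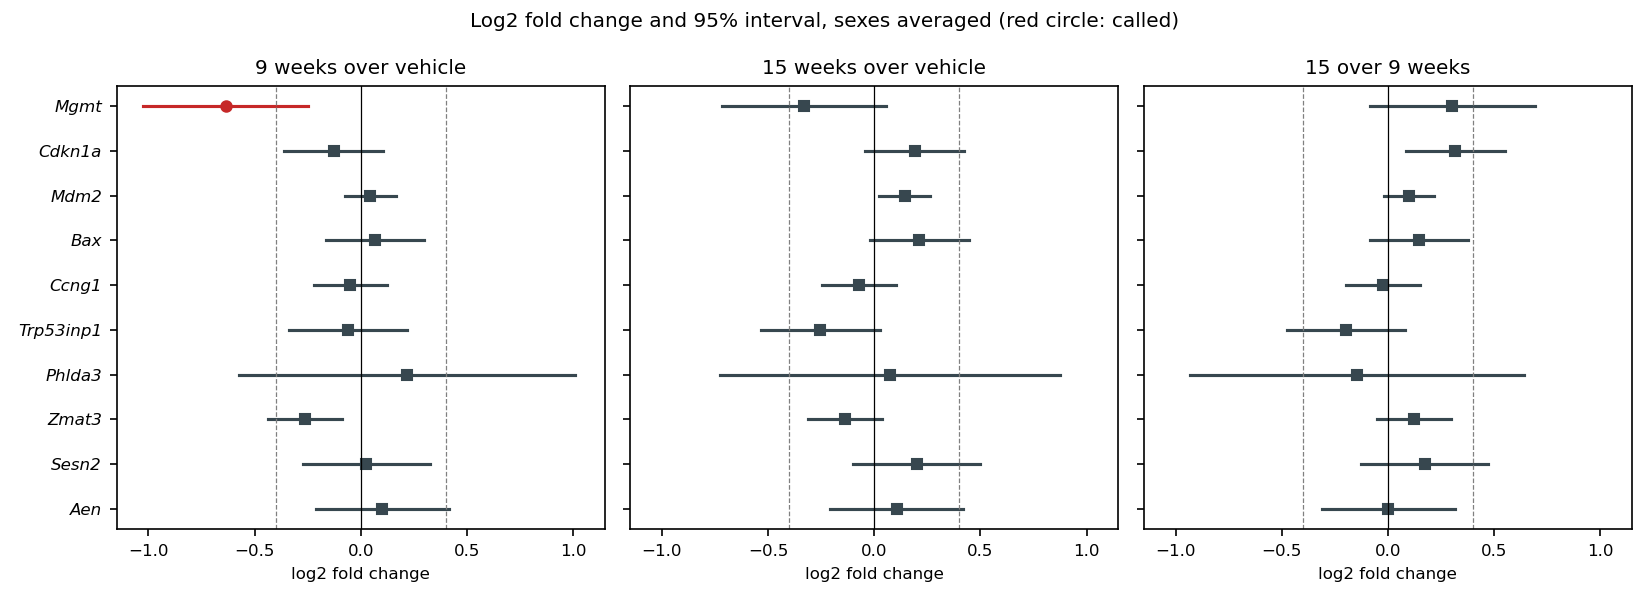
Log2 fold change (horizontal axis) of the 10 genes in 3 comparisons with the sexes averaged, with the 95% interval as a line and the called gene as a red circle. Dashed lines mark 0.4 in either direction, and all but Mgmt at 9 weeks are uncalled.

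Mdm2 (chromosome 10), the ubiquitin ligase that degrades p53, had the smallest spread of CPM over the libraries among the 10 genes. Its CPM ran from 39.2 to 52.5 in vehicle-treated mice, from 44.1 to 54.5 at 9 weeks and from 46.5 to 61.7 at 15 weeks. The highest of the 30 libraries was 1.58 times the lowest. The fold change was 0.04 ± 0.06 on the log2 scale at 9 weeks (adjusted p = 0.673), with an interval from −0.08 to 0.16. At 15 weeks it was 0.14 ± 0.06 (adjusted p = 0.0835), with an interval from 0.02 to 0.26, and the level was 10.5% higher.

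Cdkn1a (chromosome 17), whose product p21 halts the cell cycle, was the target with the lowest adjusted p between the 2 times. In females it stood at 366, 275, 314, 261 and 239 CPM after vehicle, at 233, 218, 282, 279 and 412 CPM at 9 weeks, and at 379, 299, 272, 289 and 314 CPM at 15 weeks. In males it stood at 358, 284, 356, 349.6 and 196 CPM after vehicle, at 291, 257, 273, 248 and 255 CPM at 9 weeks, and at 385, 388, 299, 368 and 446 CPM at 15 weeks. The 5 males at 15 weeks lay above the 5 males at 9 weeks, a separation seen in 1.37% of all genes tested, and the females overlapped. With the sexes averaged, 15 over 9 weeks gave 0.32 ± 0.11 on the log2 scale, with an interval from 0.08 to 0.55 and an adjusted p of 0.0934.

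The call on Cdkn1a at 15 over 9 weeks turned on a single library. The 20 fits that left out 1 library each gave 0.28 to 0.42, with adjusted p from 0.0104 to 0.175. Without female replicate 5 at 9 weeks, the library with 412 CPM and few leukocyte markers, Cdkn1a was called at 0.42 with an adjusted p of 0.0104, and the share of all genes called rose from 2.42% to 7.48%. Against vehicle, Cdkn1a gave −0.13 ± 0.11 at 9 weeks (adjusted p = 0.501) and 0.19 ± 0.11 at 15 weeks (adjusted p = 0.236). Its exons share 273 bases with a gene on the other strand, AC167363.2, and whether the counting used strand is not given in the sources used here, so reads of the pair may be mixed.

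Ccng1 (chromosome 11), which encodes cyclin G1, stood at 90.9 ± 14.3 CPM (SD, n = 10) after vehicle, 87.6 ± 9.86 CPM at 9 weeks and 86.1 ± 11.4 CPM at 15 weeks. The males at 9 weeks ran from 78.2 to 88.5 CPM, and those after vehicle from 65.7 to 95.9 CPM. Its fold changes over vehicle were −0.05 ± 0.08 (adjusted p = 0.754) and −0.07 ± 0.08 (adjusted p = 0.568) on the log2 scale.

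Bax, Aen and Trp53inp1, which promote apoptosis, were not called in any of these 3 comparisons. Bax (chromosome 7), a pore-forming protein of the mitochondrial outer membrane, stood at 35.6 ± 4.13 CPM after vehicle, at 37.4 ± 5.61 CPM at 9 weeks and at 41.4 ± 10.5 CPM at 15 weeks. The larger SD at 15 weeks came with female replicate 2 at 66.2 CPM, the highest of all 30 libraries. The fold change of Bax at 15 weeks was 0.21 ± 0.11 on the log2 scale, with an interval from −0.02 to 0.44 (adjusted p = 0.184). Bax shares 192 exon bases with Gm45808 on the same strand, so its counts are uncertain to that extent.

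Aen (chromosome 7), a nuclease that takes part in p53-dependent apoptosis, stood at 18.4 ± 4.62, 19.8 ± 4.63 and 19.8 ± 4.45 CPM after vehicle, at 9 and at 15 weeks. The fold changes over vehicle were 0.10 ± 0.15 and 0.11 ± 0.15 on the log2 scale, and the groups overlapped. Trp53inp1 (chromosome 4), a stress-induced nuclear protein that promotes p53 activity, stood at 90.2 ± 16.6, 86.8 ± 16.6 and 75.7 ± 17.8 CPM. Its mean was lowest at 15 weeks, where the fold change was −0.25 ± 0.14 on the log2 scale with an interval from −0.53 to 0.02 (adjusted p = 0.186).

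Phlda3 (chromosome 1), which restrains the kinase Akt, had the largest spread, and the highest of its 30 libraries was 35.8 times the lowest. After vehicle it stood at 1.55, 0.649, 1.30, 1.33 and 1.28 CPM in females and at 5.04, 2.18, 1.16, 2.66 and 2.76 CPM in males. At 9 weeks it stood at 1.82, 2.11, 2.11, 2.21 and 0.323 CPM in females and at 4.04, 1.27, 3.27, 2.95 and 1.70 CPM in males. At 15 weeks it stood at 1.29, 1.10, 1.24, 0.678 and 0.987 CPM in females and at 1.36, 2.45, 1.05, 1.03 and 11.5 CPM in males. The male mean lay above the female mean in all 3 treatments, but the sexes overlapped in each.

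The highest value of Phlda3 and the lowest fell in libraries that differed in their other markers. Male replicate 5 at 15 weeks, with 11.5 CPM, had the highest summed level of the 6 markers of Wnt-driven tumours, 197 CPM against 36.8 to 85.6 CPM in the other 4 of its group, and also the highest of the 8 fibroblast markers, 156 CPM against 11.8 to 106 CPM. The 6 Wnt markers did not move together, with log2 fold changes from −1.52 to 3.67 at 15 weeks over vehicle. Their summed level had a median of 55.2 CPM after vehicle and 38.5 CPM at 15 weeks. Female replicate 5 at 9 weeks, with 0.323 CPM, had 40.5 CPM of the fibroblast markers against 192 to 301 CPM in its group, and male vehicle replicate 1, with 5.04 CPM, had 1268 CPM against 103 to 488 CPM. With each group's mean taken off, Phlda3 and the mean level of the fibroblast markers had r = 0.68 (permutation p = 0.0002, adjusted p = 0.004) and rho = 0.63 (permutation p = 0.00059, adjusted p = 0.0118) over the 30 libraries, with r = 0.60 without the 2 libraries farthest in these markers. The fold change at 15 weeks over vehicle was 0.07 ± 0.39 on the log2 scale, and it was −0.54 without that male library.

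Zmat3 (chromosome 3), an RNA-binding protein, had an adjusted p under 0.05 at 9 weeks but differed by less than the minimum for a call. After vehicle it stood at 25.0, 26.0, 26.7, 22.9 and 29.96 CPM in females and at 27.5, 21.8, 24.6, 33.9 and 32.6 CPM in males. At 9 weeks it stood at 26.5, 21.2, 22.8, 21.7 and 21.2 CPM in females and at 21.97, 20.3, 21.2, 21.8 and 27.0 CPM in males. In both sexes the groups overlapped. In females 4 of the 5 treated libraries lay below the lowest vehicle library, and in males 4 of the 5 lay below the second lowest. The log2 fold change was −0.26 ± 0.08 with an interval from −0.43 to −0.09 and an adjusted p of 0.0343, which corresponds to −16.5%. At 15 weeks the values ran from 20.7 to 30.4 CPM and the fold change was −0.14 ± 0.08 (adjusted p = 0.258).

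Sesn2 (chromosome 4), which restrains mTORC1 under stress, had its lowest adjusted p of the 12 comparisons between the sexes after vehicle. After vehicle it stood at 18.2, 24.0, 24.5, 17.4 and 25.7 CPM in females and at 9.99, 15.8, 17.6, 12.6 and 11.4 CPM in males, overlapping only between the lowest female and the highest male. Males over females gave −0.70 ± 0.21 on the log2 scale with an adjusted p of 0.0755, and 0.178% of all genes were called in this comparison. DESeq2 called it, with −0.70 and an adjusted p of 0.0347, and so did edgeR without female replicate 1 (adjusted p = 0.0267) or without male replicate 3 (adjusted p = 0.0389). Without male replicate 1, the library with the most smooth muscle RNA, it gave −0.61 (adjusted p = 0.421), and without the 3 libraries with the most −0.51 (adjusted p = 0.967). Without that female replicate the number of all genes called rose from 29 to 1047. At 9 weeks the sexes stood at 12.5, 17.5, 11.9, 18.8 and 23.2 CPM in females and at 13.8, 21.1, 16.5, 17.0 and 22.9 CPM in males. The change over vehicle was −0.39 ± 0.21 in females and 0.44 ± 0.21 in males. The test of the difference between these changes gave 0.83 ± 0.29 with an unadjusted p of 0.00852 and an adjusted p of 0.600, and no gene was called among the 16261, or 0%.

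The epithelial markers of the sexes were also compared. The summed level of the 10 epithelial markers after vehicle was 17684 to 38939 CPM in females and 12029 to 25397 CPM in males. These ranges overlap, and none of the 10 markers was called, beside 0.178% of all genes. Their log2 fold changes of males over females went both ways, from −1.30 to 0.57, with a median of −0.20. With each group's mean taken off, Sesn2 and the mean level of the epithelial markers had r = 0.71 (permutation p = 4e-05, adjusted p = 0.0016) and rho = 0.71 (permutation p = 0.0002, adjusted p = 0.008) over the 30 libraries, with r = 0.68 without the 2 libraries farthest in these markers. Bax with the epithelial markers (r = 0.45, adjusted permutation p = 0.0495, and rho = 0.57, adjusted permutation p = 0.0221) and Mdm2 with the fibroblast markers (r = −0.55, adjusted permutation p = 0.0495, and rho = −0.57, adjusted permutation p = 0.0392) were the other pairs under 0.05 by both measures, with r = 0.47 and r = −0.69 without 2 libraries each. The part of the epithelium in the difference of Sesn2 between the sexes was not tested. At 15 weeks Sesn2 stood at 23.3, 24.0, 17.5, 28.3 and 18.2 CPM in females and at 22.1, 16.9, 13.8, 11.7 and 22.8 CPM in males, overlapping.

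In the other comparisons none of the 10 genes was called by edgeR. In males, 0 of 10 were called at 9 weeks against 7.31% of all genes and at 15 weeks against 8.92%, with 3 and 1 unadjusted p-values under 0.05 against 25.4% and 31.4% of all genes. DESeq2 called 1 of them, Mgmt, in males at 9 weeks (−0.69, adjusted p = 0.0485), and edgeR did so with the fibroblast and smooth muscle covariate (−0.85, adjusted p = 0.0359) and without male replicate 5 at 9 weeks (−0.87, adjusted p = 0.0485). In females, 0 of 10 were called at 9 weeks against 2.9% and at 15 weeks against 0.0984%, with 1 and 0 unadjusted p-values under 0.05 against 17.2% and 10.9%. Between the sexes 0 of 10 were called at 9 weeks against 0.0492% and at 15 weeks against 0.184%, with 0 and 1 unadjusted p-values under 0.05 against 3.87% and 12.4%, and after vehicle 2 of 10 had such a p against 18.7%. In the difference between the sexes in the response 1 of the 10 had an unadjusted p under 0.05 at 9 weeks against 7.41% of all genes, and 0 at 15 weeks against 7.66%. DESeq2 called none of the 10 in the female comparisons, at 9 and 15 weeks between the sexes, or in the difference of the responses.

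The genes around the p53 targets were counted in lists, with the sexes averaged unless stated. Of 25 other p53 targets, all tested, 3 rose at 9 weeks, none fell and 22 did not pass, beside 5.65% of all genes called higher and 2.87% lower, with a median of −0.06 on the log2 scale against −0.02 over all genes. An unadjusted p under 0.05 was found for 10 of the 25, against 29% of all genes. Ddit4, an inhibitor of mTORC1, rose by 0.69 ± 0.17 (adjusted p = 0.00652), from 32.5 ± 10.2 CPM (SD, n = 10) after vehicle to 52.2 ± 15.8 CPM. Apaf1, the core of the apoptosome, rose by 0.62 ± 0.12 (adjusted p = 0.000702), and Fas, a death receptor, rose by 0.49 ± 0.15 (adjusted p = 0.0221). Without the 3 libraries with the most smooth muscle RNA Fas gave 0.49 but was not called (adjusted p = 0.0673). The leukocyte markers rose in the same comparison, and their part in these changes was not tested. Leaving out 1 library ended the call of Fas in 2 of 20 fits, with 0.397 without female replicate 5 and 0.44 (adjusted p = 0.0504) without male replicate 2 at 9 weeks.

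At 15 weeks 3 of the 25 rose, 1 fell and 21 did not pass, beside 3.54% of all genes called higher and 4.25% lower, with a median of −0.09 against −0.03 over all genes. An unadjusted p under 0.05 was found for 10 of the 25, against 34.2% of all genes. The summed level of the 25 had a median of 1001 CPM after vehicle, 1110 CPM at 9 weeks and 1099 CPM at 15 weeks, with overlapping ranges. Dcxr, a carbonyl reductase, rose by 0.48 ± 0.12 (adjusted p = 0.00774), Rps27l, a ribosomal protein paralog, by 0.43 ± 0.09 (adjusted p = 0.00252) and Perp, a desmosome protein, by 0.41 ± 0.08 (adjusted p = 0.00131). Polk, a polymerase that copies past damaged bases, fell by 0.54 ± 0.16 (adjusted p = 0.0226). The 4 calls were the same by DESeq2, but without the 3 libraries with the most smooth muscle RNA only Perp was kept, at 0.41. There Dcxr gave 0.44 (adjusted p = 0.0530), Rps27l 0.37 (adjusted p = 0.0178, under the minimum for a call) and Polk −0.42 (adjusted p = 0.136), and the share of all genes called fell from 7.79% to 2.77%. Leaving out 1 library brought 3 of these genes just under the minimum of 0.4. These were Perp without female vehicle replicate 1, male vehicle replicate 5 or female replicate 4 at 15 weeks (0.37 to 0.38), Dcxr without male replicate 5 at 15 weeks (0.399) and Rps27l without male vehicle replicate 1 (0.38). Of the 8 fibroblast markers 4 fell at 15 weeks by edgeR and by DESeq2, and of the 8 smooth muscle markers 7 fell by edgeR and 0 by DESeq2. In females alone 0 of the 8 smooth muscle markers fell, with a median of −0.62 on the log2 scale. In males 8 fell, with a median of −5.39. Male vehicle replicate 1 held 5595 CPM of the smooth muscle markers, and the other vehicle libraries at most 135 CPM. The part of both marker lists in the calls of the p53 targets was not tested. Between 9 and 15 weeks Apaf1 fell by 0.60 ± 0.12 (adjusted p = 0.0127), while Ddit4 gave −0.46 ± 0.17 (adjusted p = 0.107) and Fas −0.12 ± 0.15 (adjusted p = 0.651).

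Trp53 itself, which encodes p53, stood at 50.4 ± 6.40 CPM (SD, n = 10) after vehicle, 47.5 ± 4.14 CPM at 9 weeks and 49.7 ± 5.37 CPM at 15 weeks. Its fold changes over vehicle were −0.08 ± 0.07 (adjusted p = 0.489) and −0.02 ± 0.07 (adjusted p = 0.886). Of the 14 genes of the p53 family and its regulators 11 were tested. With the sexes averaged none was called at either time by edgeR or DESeq2. An unadjusted p under 0.05 was found for 2 and 3 of the 11, beside 29% and 34.2% of all genes. Mdm4, an inhibitor of p53, gave −0.34 ± 0.09 at 15 weeks (adjusted p = 0.0115), which was under the minimum for a call. In males alone 2 of the 11 fell at 15 weeks by edgeR, beside 8.92% of all genes called in either direction. RNA levels do not report the amount of p53 protein, which is regulated chiefly by its degradation.

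Mgmt was also set beside the other repair genes. With the sexes averaged, none of 15 genes of alkylation, base excision and mismatch repair was called at 9 weeks by edgeR or DESeq2. The unadjusted p was under 0.05 for 4 of them, beside 29% of all genes. At 15 weeks 1 fell, Msh6, a subunit of the mismatch recognition complex, by 0.47 ± 0.15 (adjusted p = 0.0303), beside 4.25% of all genes called lower. It was not called without the 3 libraries with the most smooth muscle RNA (−0.42, adjusted p = 0.112), nor in 6 of the 20 fits that left out 1 library (female vehicle replicate 1, male vehicle replicate 5, female replicates 1 and 2 and male replicates 1 and 5 at 15 weeks), where the fold change went to −0.38 and the adjusted p to 0.0735. The median of the 15 was −0.06 at 9 weeks and −0.05 at 15 weeks. In males alone 1 of the 15 fell at 9 weeks and 2 at 15 weeks by edgeR. Of all genes, 7.31% and 8.92% were called in either direction in these comparisons. Of 12 proliferation genes none was called by edgeR or DESeq2. The unadjusted p was under 0.05 for 1 and 0 at 9 and 15 weeks, beside 29% and 34.2% of all genes. The log2 fold changes of the 12 ran from 0.09 to 0.46 at 9 weeks and from −0.03 to 0.27 at 15 weeks. The medians were 0.21 and 0.17, against −0.02 and −0.03 over all genes. Cyp2e1, which oxidises AOM, was at 0.859 ± 0.718 CPM (SD, n = 10) after vehicle and 0.0990 ± 0.132 CPM at 9 weeks. Its adjusted p at 9 weeks was 0.00564, but its mean FPKM was under 1 in both groups, so it was not called.

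**Figure D4:**
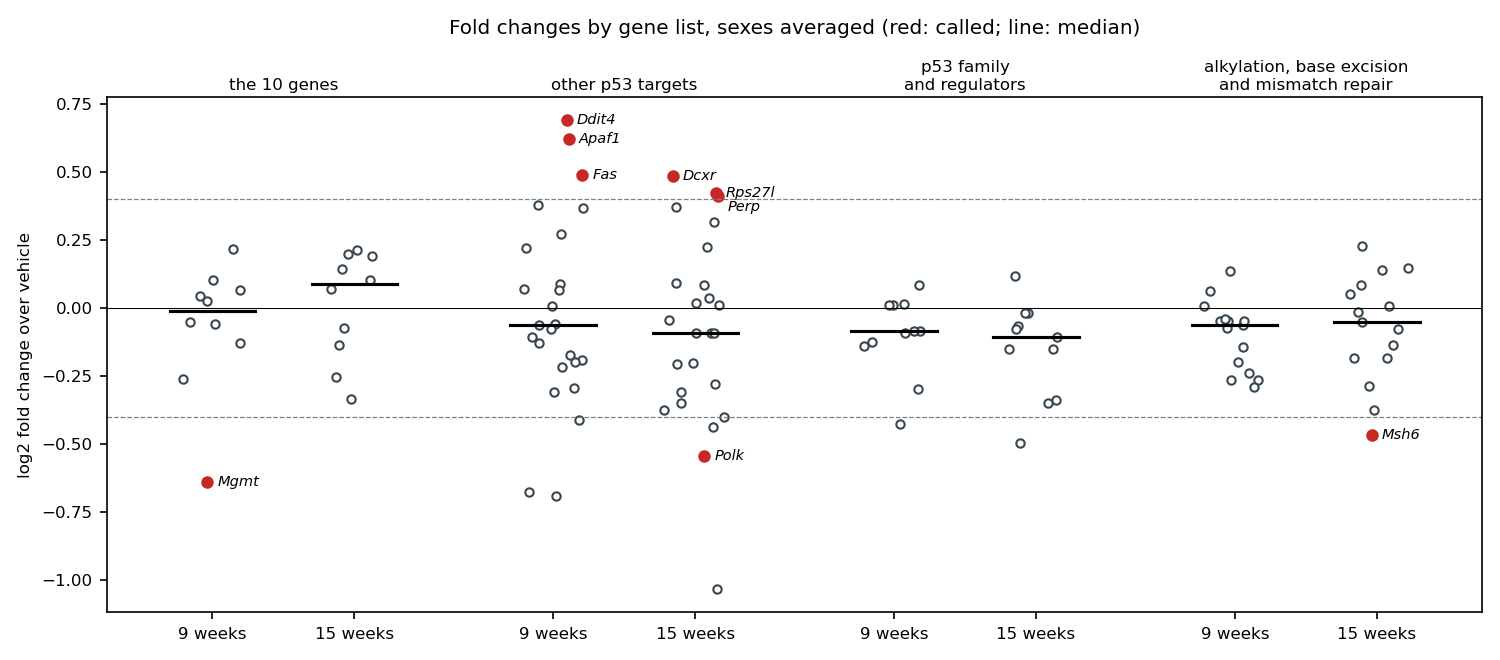
Log2 fold change over vehicle (vertical axis), sexes averaged, of the tested genes in 4 lists at 9 and 15 weeks. Red points are called and named, black lines are list medians and dashed lines mark 0.4 in either direction, and 1 of the 10 genes, 3 and 4 of the 25 other p53 targets and 1 repair gene are called.

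No pair of the 10 genes passed the test of correlation from mouse to mouse. After each group's mean was taken off log2 CPM, Spearman's rho over the 30 libraries ran from −0.57 to 0.50 across their 45 pairs. Its median was −0.08, with 19 pairs above 0. Across the 36 pairs of the 9 p53 targets the median was −0.11, with 14 above 0. Over all pairs of tested genes the median was −0.00050. Of the 45 pairs of all 10 genes, 10 had an unadjusted p under 0.05 for rho by permutation, a share that was not computed over all pairs of tested genes. None had adjusted p-values under 0.05 by both Pearson's r and Spearman's rho. The pair with the lowest rho was Bax and Ccng1, with r = −0.57 (permutation p = 0.00151, adjusted p = 0.0594) and rho = −0.57 (permutation p = 0.00191, adjusted p = 0.0859), and r was −0.45 without the 2 libraries farthest from the median of Bax. The pair with the highest was Zmat3 and Aen, with r = 0.51 (permutation p = 0.0178, adjusted p = 0.133), rho = 0.50 (permutation p = 0.0156, adjusted p = 0.176) and r = 0.47 without 2 libraries.

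**Figure D5:**
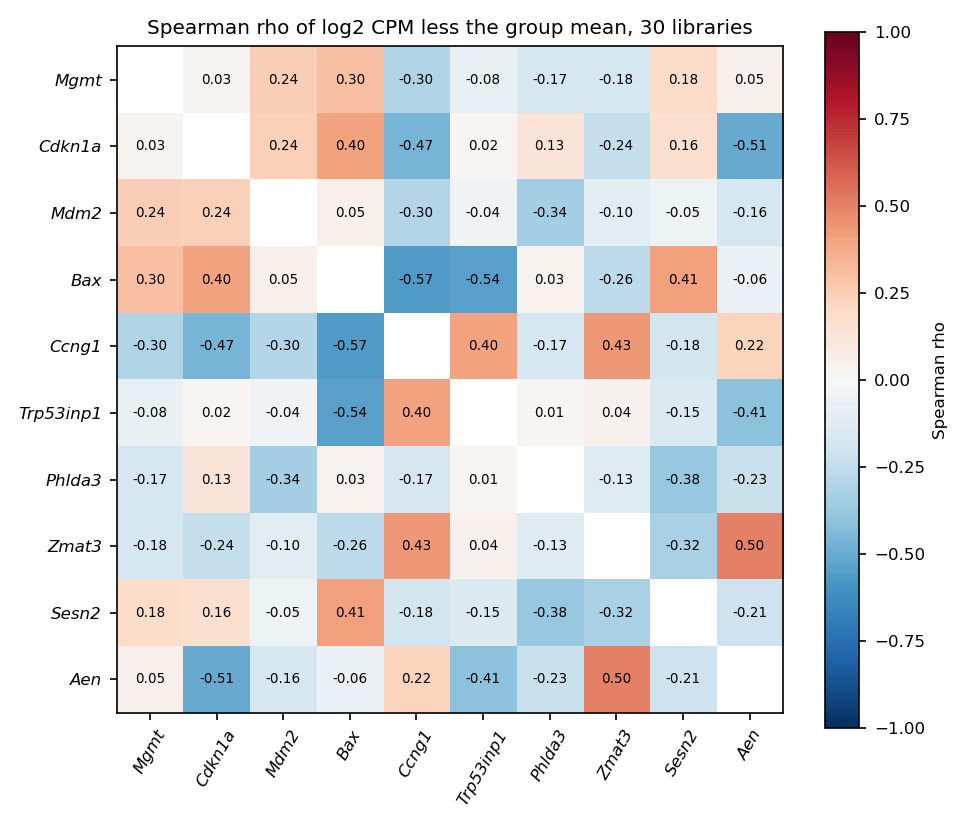
Spearman's rho between the 10 genes, from log2 CPM with each group's mean taken off, over 30 libraries. Red is positive and blue negative, and the values run from −0.57 to 0.50 with Bax and Ccng1 the lowest and Zmat3 and Aen the highest.

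Over the 30 libraries with the groups left in, the genes with the levels most like those of Mgmt among 10642 with a mean of at least 5 CPM were Rpap1, Adck3 and Lyplal1, with rho of 0.78, 0.75 and 0.72. Their mean CPM after vehicle and at 9 weeks was 27.7 and 24.3, 50.5 and 24.8, and 7.79 and 4.76. Those most like Cdkn1a were Ist1, Pmp22 and Ldha, with rho of 0.79, 0.76 and 0.76. These values share the libraries and their depth, and they are a description of likeness in level.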

How the data were processed

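Groups were taken from the labels, which give no batch. The authors aligned the reads with STAR to GRCm38 and deposited raw counts per gene from featureCounts and, per library, FPKM and TPM from StringTie, scaled to library size and to 1 common total. Per the file headers, the same files hold the mean read coverage of each gene, which was not used. Duplicates were kept, so counts are not independent molecules. Replicates are separate mice, and of 60 within-group pairs none was a copy. Replicate numbers did not pair the libraries.

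Counts were tested with edgeR 4.0.16 (R 4.3.3): filterByExpr, TMM, a quasi-likelihood fit of 6 groups over all 30 libraries, and Benjamini-Hochberg adjustment over 16261 genes. CPM are edgeR's, with TMM factors of 0.832 to 1.10. The thresholds are those of the study's methods, whose DESeq2 test (1.42.0) was an alternative, and limma 3.58.1 on log2(TPM + 0.5) was added after seeing the data. FPKM served only for its minimum of 1. Lines of a gene repeated in an FPKM file (11 to 20 per file) were added. Correlations used 100000 permutations. The script was tested on simulated counts.

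The members and lists were chosen with earlier results of these data known. Genes named are the 10, Trp53, Mdm4, Cyp2e1, up to 3 called genes per list and direction, and the 3 genes most like Mgmt and Cdkn1a.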

Additional observations from a re-analysis of the deposited data

Results flagged for a closer look

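Of the 60 groups of 5 libraries (10 genes in 6 groups), 7 held a library whose CPM stood apart from the other 4 by Dixon's criterion, and chance alone gives this in about 1 in 20 groups. Mgmt was 3.86 CPM in male vehicle replicate 3 against a group median of 2.90 CPM. Bax was 47.4 CPM in female replicate 5 at 9 weeks against a median of 34.5 CPM, and 66.2 CPM in female replicate 2 at 15 weeks against 37.8 CPM. Ccng1 was 75.8 CPM in male replicate 5 at 15 weeks, below a median of 87.4 CPM. Phlda3 was 0.323 CPM in female replicate 5 at 9 weeks against a median of 2.11 CPM, and 11.5 CPM in male replicate 5 at 15 weeks against 1.36 CPM. Zmat3 was 27.0 CPM in male replicate 5 at 9 weeks against a median of 21.8 CPM. Female replicate 5 at 9 weeks and male replicate 5 at 15 weeks each stood apart in 2 genes. They had the lowest summed fibroblast markers at 9 weeks and the highest summed markers of Wnt-driven tumours at 15 weeks.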

How the results depend on the processing

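The number of the 10 genes called at 9 weeks with the sexes averaged was 1, and it became 2 with the adjusted p alone (Zmat3 added), 0 on TPM as deposited, 0 on TPM rescaled over nuclear genes and 0 without the 3 libraries with the most smooth muscle RNA. From 0 it became 4 at 15 over 9 weeks on deposited TPM (Mdm2, Ccng1, Trp53inp1 and Bax, all lower), where 50.8% of all genes were called and their median was −0.50, 1 in males at 9 weeks with the fibroblast and smooth muscle covariate and with DESeq2, 1 in males at 15 weeks on TPM rescaled over nuclear genes, and 1 between the sexes after vehicle with DESeq2. The main fit called 7.31% and 8.92% of all genes in males at 9 and 15 weeks. Between the sexes after vehicle it called 0.178%. The shares under the alternatives are not set beside these counts of 1, so the counts are not weighed against a background. Leaving out 1 library at a time gave 1 in every fit at 9 weeks, and 0 to 1 at 15 over 9 weeks (Cdkn1a, without female replicate 5 at 9 weeks), in males at 9 weeks (Mgmt, without male replicate 5 at 9 weeks) and between the sexes after vehicle (Sesn2, without female replicate 1 or male replicate 3). In the other 8 comparisons the count stayed at 0 in these fits. The 3 settings on TPM and the one without 3 libraries were chosen after seeing the data, and the cause of these shifts was not tested.

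Of 330 values of the 30 fold changes of the 10 genes, 37 changed sign, 32 of them on a TPM scale, and none of these was of a value called by edgeR, while on deposited TPM 2 of the 37 (Mdm2 and Bax at 15 over 9 weeks) were called with the opposite sign. On deposited TPM at 9 weeks these were 0.20 for Cdkn1a, 0.26 for Ccng1, 0.24 for Trp53inp1 and 0.049 for Zmat3. On deposited TPM at 15 weeks they were −0.11 for Cdkn1a, −0.16 for Mdm2, −0.11 for Bax, −0.20 for Phlda3, −0.092 for Sesn2 and −0.093 for Aen, and at 15 over 9 weeks −0.25 for Mgmt, −0.31 for Cdkn1a, −0.51 for Mdm2, −0.50 for Bax, −0.38 for Zmat3, −0.38 for Sesn2 and −0.52 for Aen. Rescaled over nuclear genes they were 0.0297 for Ccng1 and 0.0201 for Trp53inp1 at 9 weeks, −0.00802 for Cdkn1a, −0.067 for Mdm2, −0.00826 for Bax, −0.26 for Phlda3, −0.0198 for Sesn2 and −0.011 for Aen at 15 weeks, and −0.029 for Mgmt, −0.20 for Mdm2, −0.17 for Bax, −0.16 for Zmat3, −0.12 for Sesn2 and −0.23 for Aen at 15 over 9 weeks. With TMM scaling of TPM it was −0.054 for Phlda3 at 15 weeks. With the covariate it was 0.58 for Phlda3 and −0.10 for Aen at 15 over 9 weeks, without the 3 libraries 0.0114 for Ccng1 at 15 over 9 weeks and −0.014 for Sesn2 at 9 weeks, and with the replicate block −0.000672 for Aen at 15 over 9 weeks. Leaving out 1 library gave −0.063 to 0.025 for Ccng1 and −0.062 to 0.074 for Aen at 15 over 9 weeks, −0.54 to 0.24 for Phlda3 at 15 weeks and −0.051 to 0.084 for Sesn2 at 9 weeks.

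Counts over all genes moved more. At 9 weeks, 15 weeks and 15 over 9 weeks edgeR called 1384, 1267 and 394 genes, DESeq2 1479, 1462 and 605, the adjusted p alone 2634, 2832 and 807, deposited TPM 1132, 0.953% of all genes tested at 15 weeks, and 8268, TPM rescaled over nuclear genes 1144, 1390 and 1516, the covariate 1475, 698 and 0, the fit without a filter on low counts 1297, 1085 and 228, and the fit without the 3 libraries 1170, 450 and 426. Leaving out 1 library gave 1196 to 1732, 885 to 1571 and 98 (without female replicate 4 at 9 weeks) to 1217 (without female replicate 5 at 9 weeks). Between the sexes after vehicle 29 became 473 with DESeq2. In females at 15 weeks 16 became 95 with DESeq2 and 0 with the compared groups fitted alone, and in males at 15 weeks 1451 became 181 in the latter and 123 without the 3 libraries.

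The replicate numbers are not stated to mark anything shared. Of 75 pairs of libraries with the same number, 12 had deviations correlated above 0.1, with a median r of −0.03. With the replicate block Mgmt gave −0.64 at 9 weeks (adjusted p = 0.0287), and no count of members called changed. Low counts of Mgmt and Phlda3 limit the precision of their values.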
